A study of Mus musculus with 12 samples.

Results

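Gene expression was compared between 2 lines of mouse embryonic fibroblasts: the 1 line labelled p27-null (p27 KO, 4 libraries, experiments 1 to 4) and the first of the wild-type lines (p27 WT clone1, called line 1 here, 4 libraries, experiments 1 to 4). These 8 libraries were chosen by their sample titles from the 12 of the series. The other 4 come from a second wild-type line (line 2) and are given only as context, with no test. All cells carried the E6 protein of a human papillomavirus, which immortalises fibroblasts and directs p53 to degradation, and all grew for 24 h in DMEM with 10% fetal bovine serum before total RNA was taken. The p27-null genotype is represented by 1 line, and the labels give neither the allele nor the sex, strain or age of the embryos. Genotype and line therefore cannot be told apart here. The labels do not state whether each experiment was its own culture. The p-values cover only the spread between these libraries, which may be technical.

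The protein p27, encoded by Cdkn1b, binds complexes of cyclins and cyclin-dependent kinases and holds cells in G1. It also has roles outside the nucleus, where it binds RhoA and stathmin and acts on cell migration, and in starved cells it acts at the lysosome on mTORC1. Embryonic fibroblasts are mesenchymal cells of mixed origin. They keep much of the transcription factor pattern of the body region they came from, and lines grown out of different cells can differ in that pattern whatever their genotype.

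Cdkn1b itself (chromosome 6, 134897364 to 134902476 in GRCm39) had 86.7, 115, 117 and 98.3 CPM in the line labelled p27-null, against 87.1, 88.9, 92 and 101 CPM in line 1. CPM are read counts per 1 M counts of genes with an identifier, scaled by TMM. The groups overlapped, and the difference missed the threshold (log2 fold change 0.17 ± 0.12, SE, edgeR adjusted p = 0.323). Coding sequence makes up 591 of the 4552 transcript bases (2 exons), so counts over the whole gene do not check the label. The line is called "labelled p27-null" for that reason. Fibroblast identity was read from 15 markers. Fap and Lum were not in the table and the other 13 were. The summed level of the 13 was 18624 to 25203 CPM in the p27-null-labelled libraries and 17801 to 24342 CPM in line 1. Vim alone averaged 5054 CPM in the line labelled p27-null and 3433 CPM in line 1. Collagen Col1a1, the surface protein Thy1 and the receptor Pdgfra overlapped between the lines. S100a4, chosen after its values were seen, overlapped at a low level, averaging 1.25 against 1.02 CPM. Of the 13 tested, Pdgfrb and Vim were higher (log2 fold change 0.61 ± 0.09 and 0.54 ± 0.14, edgeR adjusted p = 6.2e-04 and 0.0165) and decorin, Dcn, was lower, as described with the matrix genes. The call of Vim was lost without the experiment 2, 3 or 4 library of line 1, and 2 markers were lower without the experiment 1 library of line 1 or the experiment 3 or 4 library labelled p27-null. With the experiment number as a block 4 markers were higher and 3 lower. Defining markers of epithelial (Epcam), endothelial (Cdh5), blood (Ptprc), neural (Sox10) and muscle cells (Myod1) have no values here. In bulk RNA fewer cells of a type and less RNA per cell cannot be told apart.

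Each library held 15.4 to 19.1 M counts in named genes. The leading principal component of the 8 libraries carried 74.4% of the variance and parted the lines. The next carried 14.5% and set the experiment 1 library of each line (scores 43.7 and 38.7) apart from the other 6 (-22.6 to -0.8). In those 2 libraries ribosomal protein genes took 5.48% and 5.29% of counts, against 3.34 to 4.47% in the other 6, and mitochondrial genes took 1.06% and 1.33%, against 1.75 to 2.43%. Each line has 1 such library. Without both of them 2796 genes were higher and 3071 lower.

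A large share of the expressed genes separated the lines. Of 14192 genes tested, 2102 (14.8%) were higher in the line labelled p27-null and 2471 (17.4%) were lower, together 32.2% (edgeR quasi-likelihood test, adjusted p under 0.05). The median log2 fold change of all tested genes was -0.01, but it was 0.57 for genes called higher and -0.97 for genes called lower, so decreases were the larger changes. At least 2-fold, 463 genes (3.26%) were higher and 1210 (8.53%) lower, and at least 8-fold, 62 and 306. All 4 libraries labelled p27-null lay above all 4 of line 1 in 2260 genes (15.9%) and below them in 2449 (17.3%). With the experiment number as a block 3289 genes (23.2%) were higher and 3722 (26.2%) lower, which held 4571 of the 4573 calls in the same direction. Each list count below is to be set beside 14.8% higher and 17.4% lower, or beside 23.2% and 26.2% with the block. A test against a minimum change of 1.5-fold left 442 higher and 1105 lower, so the share of calls that were higher was 28.6% in place of 46%.

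**Figure D1:**
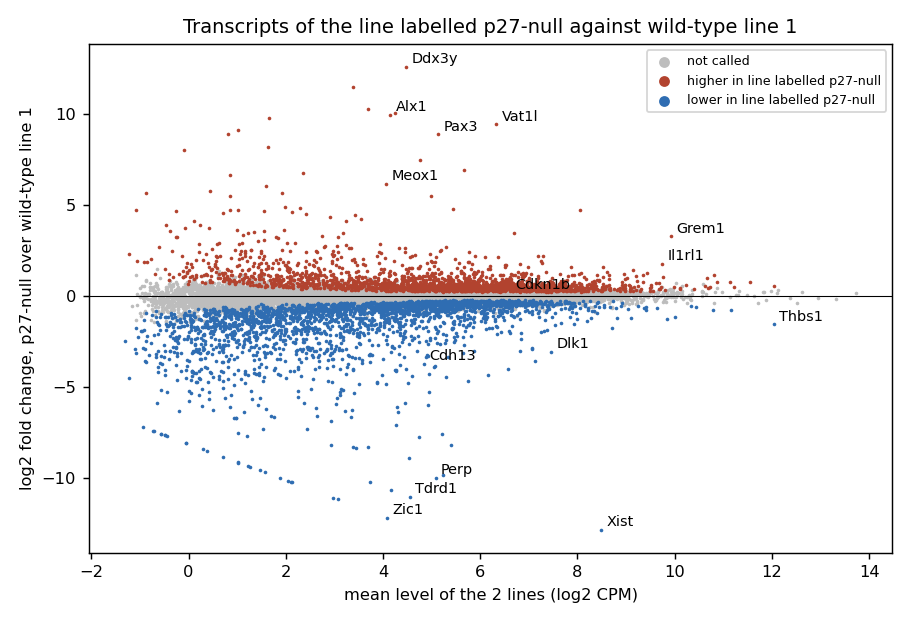
Log2 fold change (line labelled p27-null over wild-type line 1) of each of the 14192 tested genes against its mean level in the 2 lines in log2 CPM. Red points are the 2102 genes called higher and blue points the 2471 called lower at an edgeR adjusted p under 0.05. The blue cloud reaches further from 0 than the red one, and the fitted values of genes with no counts in 1 line depend on the prior count of the fit.

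Transcripts of the X and Y chromosomes included near all-or-none differences. Of 13 tested genes of X and Y pairs and of X inactivation 4 were higher, all Y-linked, and 6 lower. Xist, the noncoding RNA of the silenced female X, had 0.238, 0, 0.13 and 0 CPM in the p27-null-labelled libraries, against 352, 839, 898 and 772 CPM in line 1 (log2 fold change -12.85 ± 0.56, edgeR adjusted p = 4.1e-07). The Y-linked RNA helicase gene Ddx3y had 14.3, 52.4, 50 and 60.7 CPM in the p27-null-labelled libraries and no counts in any of the 4 of line 1, at least 1065-fold higher with 3 counts over the group as the floor (at least 935-fold without its highest library). Uty, a Y-linked demethylase gene, was likewise at 9.51, 24.6, 22.5 and 27.1 CPM against 0 counts, at least 503-fold higher (at least 454-fold without its highest library). Kdm5d and Eif2s3y, the other Y genes named, averaged 26 and 37.9 CPM in the line labelled p27-null and had 1 and 2 counts in all of line 1. X copies of the Y genes differed among themselves, and the ones given here were chosen after their values were seen. Kdm6a was lower at 29.8 ± 3.72 against 51.2 ± 9.18 CPM (SD, n = 4 each, as for all such means; log2 fold change -0.79 ± 0.15, edgeR adjusted p = 0.00279). Eif2s3x was lower at 230.4 ± 10.0 against 296 ± 10.5 CPM (log2 fold change -0.37 ± 0.08, edgeR adjusted p = 0.00499), and so was Kdm5c (-0.38 ± 0.10, edgeR adjusted p = 0.0203). Ddx3x, Usp9x and Uba1 did not pass and their libraries overlapped (-0.48 ± 0.38, -0.07 ± 0.36 and 0.01 ± 0.12, edgeR adjusted p = 0.379, 0.915 and 0.967), though Ddx3x passed as lower with the experiment block (adjusted p = 0.00143). Line 2 averaged 735 ± 138 CPM of Xist and no more than 0.0624 CPM of Ddx3y, Uty, Kdm5d or Eif2s3y. Both wild-type lines thus had Xist and almost no Y-linked transcripts, and the line labelled p27-null alone had the reverse. Sex chromosome transcripts thus differ together with the label, and the 2 cannot be told apart here. Without genes of the X, the Y and the mitochondrion, 2059 genes were higher and 2409 lower.

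Several developmental regulators were on in 1 line and off in the other. Alx1, a homeobox factor of the craniofacial mesenchyme (chromosome 10, 102834568 to 102866076), had 32, 43.7, 32.9 and 33.4 CPM in the p27-null-labelled libraries, against 0, 0, 0.106 and 0 CPM in line 1, where the whole group held 2 counts. Pax3, a paired-box factor of the neural crest and of muscle precursors, had 57.9, 89.4, 66.5 and 66.4 CPM in the p27-null-labelled libraries, against 0.0522, 0.277, 0.159 and 0.0626 CPM in line 1 (log2 fold change 8.90 ± 0.30, edgeR adjusted p = 9.7e-08). Meox1, a homeobox factor of the somites, had 40.6, 21.2, 43.5 and 26.8 CPM in the p27-null-labelled libraries, against 0.679, 0.222, 0.318 and 0.563 CPM in line 1 (log2 fold change 6.18 ± 0.35, edgeR adjusted p = 1.5e-06). These 3 genes were high in every library labelled p27-null and near 0 in every library of line 1. In the other direction Zic1, a zinc-finger factor of the neural plate and somites (chromosome 9, 91240111 to 91247863), was at 0 in each of the 4 libraries labelled p27-null, against 34.8, 33.5, 33.7 and 32.8 CPM in line 1, at least 746-fold lower (738 without the highest library). Sim2, a bHLH-PAS factor, and Nkx3-2, a homeobox factor of the axial skeleton, also had 0 counts, against 19.2, 15.8, 16.7 and 15.6 CPM and 15.5, 12.5, 19.1 and 15.6 CPM in line 1, at least 372-fold and 347-fold lower (355-fold and 322-fold without the highest library). Floors cover counting error only. In line 2 Alx1 and Pax3 averaged 53.8 ± 4.15 and 54.6 ± 7.67 CPM (SD, n = 4), while Meox1, Zic1, Sim2 and Nkx3-2 averaged no more than 0.215 CPM. So Alx1 and Pax3 were near 0 in line 1 alone, whereas Meox1 was high in the line labelled p27-null alone.

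Other genes with near all-or-none levels were not transcription factors. Vat1l had 124, 211, 119 and 189.9 CPM in the p27-null-labelled libraries, against 0.313, 0.166, 0.265 and 0.125 CPM in line 1 (log2 fold change 9.45 ± 0.33, edgeR adjusted p = 1.1e-07). The secreted sushi-repeat protein gene Srpx2 had 133, 93.5, 113 and 64.2 CPM in the p27-null-labelled libraries, against 0.522, 1.05, 1.17 and 0.438 CPM in line 1 (log2 fold change 6.95 ± 0.33, edgeR adjusted p = 6.3e-07). Mab21l2, a regulator of eye and body wall development, was at 10.1 ± 1.8 against 0.0845 ± 0.036 CPM (log2 fold change 6.79 ± 0.28, edgeR adjusted p = 3.4e-07). Perp, a p53 target that sits in desmosomes, had 1 count in each library labelled p27-null and 58.2, 71.3, 72.5 and 69.4 CPM in line 1 (log2 fold change -9.99 ± 0.18, edgeR adjusted p = 2.0e-09). The desmosomal plaque gene Pkp1 was at 0 in 3 libraries labelled p27-null and at 0.325 CPM in that of experiment 3, against 31, 22.5, 19.2 and 29.9 CPM in line 1. Tdrd1, a Tudor-domain gene of the germline piRNA pathway, Kctd12b and Esm1, which encodes a secreted proteoglycan, had 1 count each over the 4 libraries labelled p27-null and averaged 46.8, 35.7 and 26.5 CPM in line 1. The RNase P RNA-like Rprl3, whose reads may be split among similar copies, was at 0.0756 ± 0.0745 against 75.3 ± 32.6 CPM. In line 2 Vat1l, Srpx2 and Mab21l2 averaged 95.7, 63.2 and 26.3 CPM. Perp, Pkp1, Tdrd1, Kctd12b and Esm1 averaged 0.25, 1.12, 0.125, 0.581 and 0.0385 CPM there. For these genes line 1 thus lay apart from both other lines. Rprl3, at 76.1 CPM in line 2, was near 0 in the line labelled p27-null alone. Srpx2 and Kctd12b lie on the X chromosome.

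The start sites of 4 of these genes are shown because their transcripts were absent or nearly absent from 1 of the lines. Density of CG dinucleotides, the sites of DNA methylation in mammals, is a feature by which such genes can be set side by side. They are RefSeq promoters of GRCm38.p6, 250 bases before to 50 after the start, with every CG in capitals: Zic1 (chr9:91365719-91366018, minus strand), Nkx3-2 (chr5:41764171-41764470, minus strand), Vat1l (chr8:114205390-114205689, plus strand) and Mab21l2 (chr3:86548234-86548533, minus strand).
Zic1: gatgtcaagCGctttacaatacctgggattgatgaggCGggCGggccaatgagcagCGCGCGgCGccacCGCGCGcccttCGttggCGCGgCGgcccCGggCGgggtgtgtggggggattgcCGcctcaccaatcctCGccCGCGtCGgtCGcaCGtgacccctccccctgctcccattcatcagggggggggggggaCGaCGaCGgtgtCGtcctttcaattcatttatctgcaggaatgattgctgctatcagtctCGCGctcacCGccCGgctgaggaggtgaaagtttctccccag
Nkx3-2: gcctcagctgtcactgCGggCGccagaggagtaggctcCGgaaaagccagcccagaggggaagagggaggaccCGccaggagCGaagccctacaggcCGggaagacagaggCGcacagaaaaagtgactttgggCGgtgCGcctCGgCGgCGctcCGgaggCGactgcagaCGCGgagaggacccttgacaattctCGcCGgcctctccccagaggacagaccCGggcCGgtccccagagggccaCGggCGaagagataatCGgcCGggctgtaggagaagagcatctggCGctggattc
Vat1l: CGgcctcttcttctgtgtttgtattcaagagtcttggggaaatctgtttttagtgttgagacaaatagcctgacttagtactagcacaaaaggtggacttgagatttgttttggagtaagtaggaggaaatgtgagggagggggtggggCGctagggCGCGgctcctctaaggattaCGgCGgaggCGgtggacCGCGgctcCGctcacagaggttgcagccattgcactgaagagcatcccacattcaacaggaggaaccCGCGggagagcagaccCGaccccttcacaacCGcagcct
Mab21l2: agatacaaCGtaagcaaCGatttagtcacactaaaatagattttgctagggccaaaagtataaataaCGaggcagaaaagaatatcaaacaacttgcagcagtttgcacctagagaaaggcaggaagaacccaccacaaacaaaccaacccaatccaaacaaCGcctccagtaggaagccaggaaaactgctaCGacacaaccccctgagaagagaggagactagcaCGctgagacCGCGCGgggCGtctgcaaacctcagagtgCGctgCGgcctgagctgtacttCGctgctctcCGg
Zic1 and Nkx3-2, with no counts in the line labelled p27-null, hold 31 and 25 CG dinucleotides here, and Vat1l and Mab21l2, near 0 in line 1, hold 14 each. The other 8 of these genes in the table held between 2 and 20. Among them Srpx2, near 0 in line 1, held 2 and Esm1, near 0 in the line labelled p27-null, held 5. Only Srpx2 and Esm1 lay below the median, and the rest of the 12 lay above it. The median over 32851 promoters of the table is 7 (10th to 90th percentile 1 to 31). Of the 20 genes with the largest changes or with 0 counts in a line, 12 were in the promoter table. Methylation was not measured, so this describes the sequences only.

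**Figure D2:**
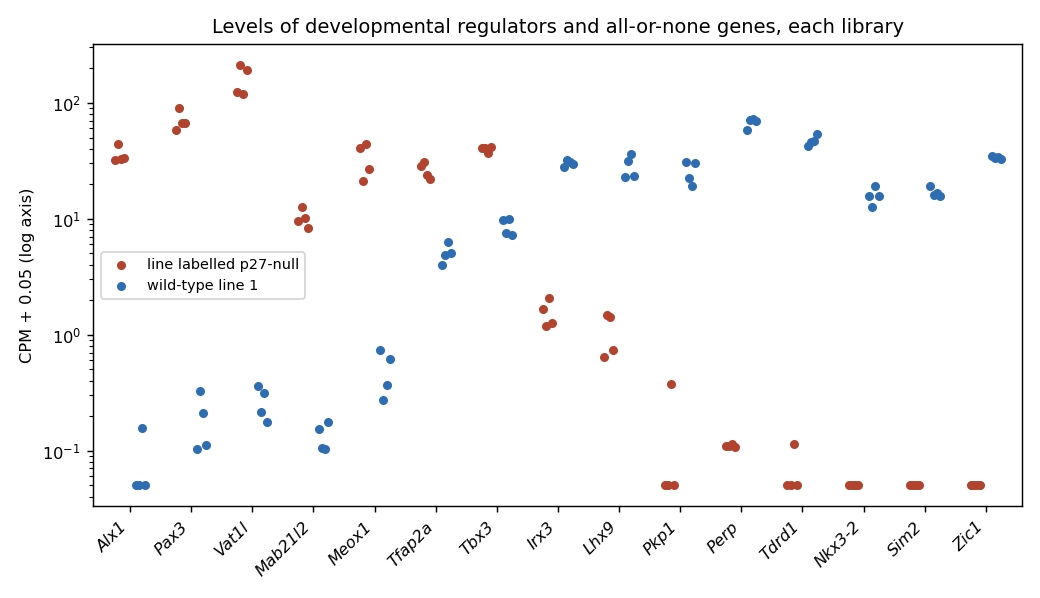
Level of 15 genes in each library, in CPM plus 0.05 on a log axis, with the 4 libraries labelled p27-null in red on the left of each gene and the 4 of wild-type line 1 in blue on the right. Each point is 1 library. The 2 groups do not overlap in any gene shown, which was a condition for naming all of them but Tfap2a, Tbx3, Irx3 and Lhx9. Zic1, Sim2 and Nkx3-2 sit at the floor in all 4 libraries labelled p27-null, and 0 counts in a line was among the grounds for naming them.

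Regulators of trunk and mesoderm and of the face and neural crest changed in both directions. Of 36 trunk and mesoderm transcription factors tested 10 were higher and 17 lower, with a median log2 fold change of -0.45 beside -0.01 for all genes. Besides Meox1 and Zic1, the T-box gene Tbx3 had 40.8, 40.6, 36.7 and 41.4 CPM in the p27-null-labelled libraries, against 9.61, 7.42, 9.96 and 7.2 CPM in line 1 (log2 fold change 2.21 ± 0.13, edgeR adjusted p = 1.6e-06). The Iroquois gene Irx3 had 1.61, 1.13, 2.01 and 1.21 CPM in the p27-null-labelled libraries, against 27.9, 32, 30.5 and 29.5 CPM in line 1 (log2 fold change -4.35 ± 0.17, edgeR adjusted p = 2.5e-07). Both pairs of groups were far apart, in opposite directions. Of 17 craniofacial and neural crest factors 7 were higher and 3 lower (median 0.63). Next to Alx1 and Pax3, the crest factor Tfap2a was higher at 26.2 ± 4.06 against 5 ± 0.962 CPM (log2 fold change 2.38 ± 0.17, edgeR adjusted p = 5.7e-06). The LIM homeobox gene Lhx9 was lower at 1.02 ± 0.435 against 28.4 ± 6.39 CPM (log2 fold change -4.81 ± 0.29, edgeR adjusted p = 2.0e-06). Line 2 had 101 ± 8.77 CPM of Tbx3 and 3.63 ± 0.842 CPM of Tfap2a, the highest level of Tbx3 and the lowest of Tfap2a among the 3 lines.

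Genes did not move evenly along the genome. On chromosome 14, 242 of the 484 tested genes were higher (50% higher, 8.88% lower) with a median log2 fold change of 0.42. The median over its genes was 0.33 to 0.47 in the 4 libraries labelled p27-null, against 0.00 to 0.03 in line 1. Chromosome 12 had a median of 0.24 (32.2% higher, 12.1% lower) and chromosome 2 of 0.16 (25.9% higher, 11.9% lower). Chromosome 8 was on the low side with a median of -0.28 (6.8% higher, 37.2% lower), and so was chromosome 11 with -0.20 (6.19% higher, 29.6% lower). In line 2 the chromosome medians, also relative to line 1, were 0.31 to 0.37 on chromosome 14, 0.23 to 0.24 on chromosome 12, -0.31 to -0.25 on chromosome 8 and -0.32 to -0.27 on chromosome 11, so on these 4 chromosomes line 1 lay apart from both other lines. Chromosome 2 was different, with -0.09 to -0.05 in line 2. DNA copy number was not measured, and the part of these shifts in the gene groups below was not tested.

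**Figure D3:**
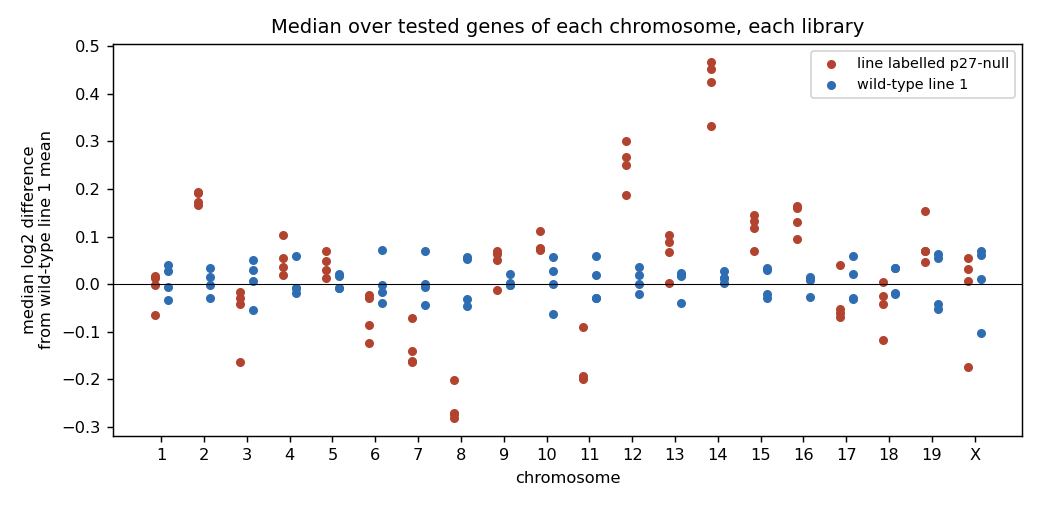
Median over the tested genes of each chromosome of the log2 difference from the wild-type line 1 mean, 1 point per library, with the libraries labelled p27-null in red on the left and wild-type line 1 in blue on the right of each chromosome. The red points of chromosome 14 lie at 0.33 to 0.47 and those of chromosome 8 at -0.28 to -0.20, outside the blue points of those chromosomes. The Y chromosome is left out because line 1 had almost no counts there.

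A stretch of chromosome 7 stood out within its chromosome. It was picked after the values were seen and is given without a test. Between 50 and 70 Mb (GRCm39) 46 of 64 tested genes were lower and 2 higher, Lrrk1 and Entrep2, with a median log2 fold change of -1.08. The median was -0.06 in the 10 Mb before it (10 of 93 genes higher, 19 lower) and -0.19 in the 10 Mb after it (5 of 52 higher, 17 lower). Each library labelled p27-null had a median between -1.08 and -0.80 there, against -0.03 to 0.08 in line 1, and line 2 lay at -1.08 to -0.96. The stretch holds Herc2, a ubiquitin ligase, at 146.0 ± 9.03 against 316.0 ± 26.8 CPM (log2 fold change -1.13 ± 0.1). It also holds Tjp1, a tight junction scaffold, at 126.0 ± 19.3 against 364.0 ± 54.7 CPM (-1.54 ± 0.15), and Mef2a, a MADS-box transcription factor, at 48.1 ± 13.8 against 152.0 ± 29.6 CPM (-1.67 ± 0.24). Igf1r, the receptor of insulin-like growth factor 1 (chromosome 7, 67601518 to 67883416), had 312, 309, 345 and 361 CPM in the p27-null-labelled libraries, against 761, 706, 806 and 792 CPM in line 1 (log2 fold change -1.22 ± 0.10, edgeR adjusted p = 1.1e-05). Line 2 averaged 227 ± 26.9 CPM. The imprinted genes Ndn and Snrpn lie in it too, at 16.1 ± 3.28 against 50.9 ± 7.84 CPM and 1.92 ± 0.256 against 4.09 ± 0.189 CPM. The medians of both other lines thus lay below those of line 1 in the stretch. Line 2 also lay below line 1 beside it, at -0.44 to -0.35 in the 10 Mb before and -0.46 to -0.36 in the 10 Mb after.

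**Figure D4:**
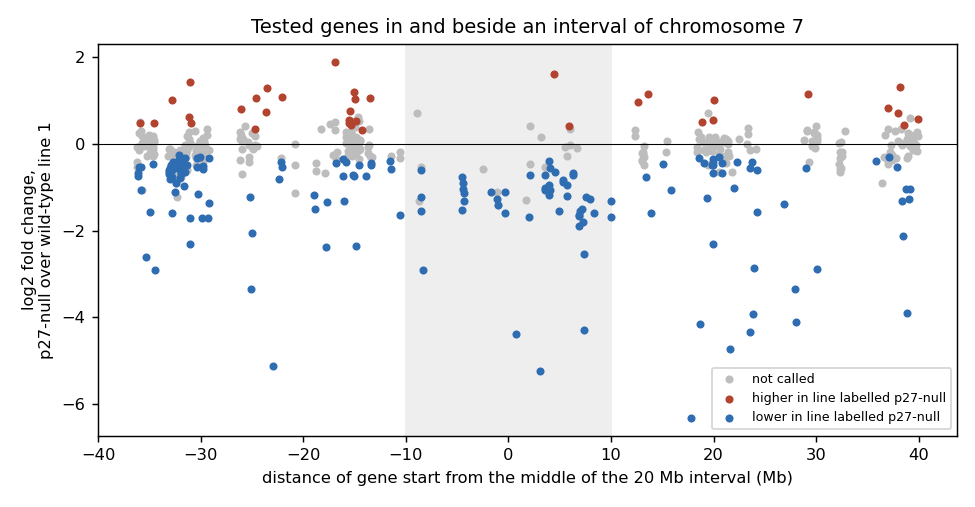
Log2 fold change (line labelled p27-null over wild-type line 1) of tested genes of chromosome 7 against the distance of each gene start from the middle of the 20 Mb stretch, in Mb. The grey band is the stretch, red and blue points are genes called higher and lower, and grey points are not called. In the band 46 of 64 genes are blue and lie mostly near -1, whereas outside it most points lie near 0.

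BMP signalling is a pathway in which ligands activate Smad proteins that switch on the Id genes. Of 21 tested genes 9 were lower and 3 higher (median -0.04). The secreted BMP antagonist Grem1 (chromosome 2, 113576509 to 113589000) had 866, 2480.1, 1655 and 2023 CPM in the p27-null-labelled libraries, against 56.1, 257, 209 and 196 CPM in line 1 (log2 fold change 3.28 ± 0.47, edgeR adjusted p = 5.4e-04). Another secreted antagonist, Chrd, was lower at 0.44 ± 0.316 against 3.82 ± 0.791 CPM (log2 fold change -3.09 ± 0.47, edgeR adjusted p = 7.5e-04), and the inhibitor Bambi was higher (0.83 ± 0.22, edgeR adjusted p = 0.0164), both chosen after their values were seen. The ligand Bmp4, chosen after its values were seen, was lower at 4.7 ± 1.37 against 19.3 ± 4.95 CPM. The target Id1 had 12.2, 7.52, 7.72 and 13.7 CPM in the p27-null-labelled libraries, against 97.4, 89.5, 112 and 61.1 CPM in line 1 (log2 fold change -3.14 ± 0.24, edgeR adjusted p = 1.1e-05). The groups did not overlap. Id2 was lower at 6.48 ± 3.06 against 40.1 ± 7.97 CPM and Id3, chosen after its values were seen, at 67.2 ± 16.8 against 159.9 ± 25.7 CPM. The feedback inhibitor Smad6 and the co-receptor endoglin, Eng, were lower by the same test (-1.64 ± 0.17 and -3.19 ± 0.22, edgeR adjusted p = 7.5e-05 and 4.2e-06). Line 2 had 1337 ± 272 CPM of Grem1 and 69.2 ± 21.6 CPM of Id1, the first nearer the line labelled p27-null and the second nearer line 1.

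Wnt genes changed in both directions, with 8 of 29 tested members higher and 11 lower (median -0.38). The Wnt agonist Rspo2 (chromosome 15, 42877439 to 43034706) had 11.8, 13.9, 15.8 and 15.4 CPM in the p27-null-labelled libraries, against 74.7, 64, 90 and 71 CPM in line 1 (log2 fold change -2.41 ± 0.14, edgeR adjusted p = 1.8e-06). Its relative Rspo3 was lower at 1.51 ± 0.589 against 8.66 ± 1.66 CPM. Of secreted modulators, Sfrp2 was lower at 5.25 ± 1.25 against 35 ± 8.54 CPM (log2 fold change -2.75 ± 0.22, edgeR adjusted p = 1.3e-05). Dkk3 was higher at 92.3 ± 15.9 against 16.9 ± 4.1 CPM (log2 fold change 2.43 ± 0.19, edgeR adjusted p = 1.3e-05). The feedback target Axin2 was lower and the ligand Wnt5a higher (-2.07 ± 0.29 and 1.04 ± 0.18, edgeR adjusted p = 4.3e-04 and 0.00183), both chosen after their values were seen. In the Hedgehog list 4 of 13 were higher and 3 lower (median 0.12). Its target Gli1, low in both lines, was higher at 3.78 ± 1.22 against 0.676 ± 0.253 CPM (log2 fold change 2.47 ± 0.32, edgeR adjusted p = 2.8e-04). The transcription factor Gli2 was lower at 23 ± 3.14 against 40.4 ± 6.2 CPM (log2 fold change -0.82 ± 0.14, edgeR adjusted p = 0.00125). In the Notch list 5 of 13 were lower and 2 higher (median -0.38). Lower were the effectors Hey2 at 3.26 ± 0.844 against 14 ± 1.25 CPM and Hey1 at 0.301 ± 0.0803 against 1.9 ± 0.476 CPM, the glycosyltransferase Lfng at 7.12 ± 1.31 against 19.9 ± 3.08 CPM and the receptor Notch1 at 33.8 ± 3.02 against 56.7 ± 7.83 CPM (edgeR adjusted p = 1.5e-05, 1.5e-04, 1.0e-04 and 9.7e-04). In line 2 Hey2, Hey1, Lfng and Notch1 averaged 0.24, 1.22, 19.6 and 19.3 CPM. The count of higher Notch genes was 1 or 2 with 1 library left out at a time. It was 1 without the experiment 1, 2 or 4 library of line 1 or the experiment 3 or 4 library labelled p27-null.

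Of 25 TGF-beta and activin genes 5 were lower and 3 higher (median -0.08; 10 lower with the experiment block). The activin subunit gene Inhbb had 8.8, 8.06, 14.3 and 9.7 CPM in the p27-null-labelled libraries, against 79.7, 47.2, 52.5 and 69.4 CPM in line 1 (log2 fold change -2.62 ± 0.23, edgeR adjusted p = 2.1e-05). The ligand Tgfb2 was lower at 23.4 ± 3.9 against 63.5 ± 12.4 CPM (log2 fold change -1.45 ± 0.16, edgeR adjusted p = 1.2e-04). The co-receptor Tgfbr3 was higher at 116 ± 31.5 against 59.2 ± 10.3 CPM (log2 fold change 0.96 ± 0.20, edgeR adjusted p = 0.00529). In the retinoic acid list, whose members make, bind and degrade that signal, 4 of 12 were lower and 2 higher (median -0.08), and 1 was higher without the experiment 2, 3 or 4 library of line 1 or the experiment 2 or 3 library labelled p27-null. They included the degrading enzyme Cyp26b1 at 1.98 ± 0.594 against 24.7 ± 6.21 CPM (log2 fold change -3.65 ± 0.25, edgeR adjusted p = 4.2e-06), the dehydrogenase Dhrs9 at 1.86 ± 0.511 against 13.4 ± 4.12 CPM and the binding protein Crabp2 at 1.67 ± 0.458 against 7.14 ± 0.789 CPM.

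Guidance cues were more often lower than higher. Of 41 ephrins, semaphorins and other axon guidance genes 17 were lower and 7 higher (median -0.17). Netrin 1, Ntn1 (chromosome 11, 68100190 to 68291662), which attracts or repels growing axons, had 4.46, 2.49, 3.57 and 3.52 CPM in the p27-null-labelled libraries, against 72.3, 62.3, 100.4 and 67.4 CPM in line 1 (log2 fold change -4.44 ± 0.21, edgeR adjusted p = 6.2e-07), with no overlap. The Slit receptor Robo1 was at 7.73 ± 1.39 against 36 ± 2.01 CPM, the semaphorin Sema3f at 5.33 ± 1.03 against 53.9 ± 12.6 CPM and the ephrin Efna1 at 1.06 ± 0.192 against 10.7 ± 2.86 CPM (edgeR adjusted p = 2.1e-06, 2.2e-06 and 7.5e-06). Among growth factors and IGF-binding proteins 12 of 35 were lower and 6 higher (median -0.40). Igf1 and Igf2, the growth factors of the Igf1r receptor, were both lower, at 3.14 ± 0.9 against 14.9 ± 3.1 CPM (log2 fold change -2.25 ± 0.23, edgeR adjusted p = 5.9e-05) and 0.604 ± 0.13 against 4.28 ± 1.17 CPM (log2 fold change -2.82 ± 0.28, edgeR adjusted p = 4.9e-05). So was the binding protein Igfbp4, at 33.2 ± 12.4 against 111 ± 10.2 CPM. The vascular growth factor Vegfb was higher at 80.5 ± 9.82 against 34.9 ± 3.03 CPM (log2 fold change 1.19 ± 0.11, edgeR adjusted p = 2.4e-05). Of 24 receptor tyrosine kinases 7 were higher and 7 lower (median -0.18; 9 and 11 with the experiment block). Fgfr1 and Ptk7 were higher (0.71 ± 0.09 and 1.12 ± 0.12, edgeR adjusted p = 2.4e-04 and 9.9e-05) and the neurotrophin receptor Ntrk3 was lower (-6.32 ± 0.50, edgeR adjusted p = 1.2e-05). Igf1, Igf2 and Igf1r were thus all lower in the line labelled p27-null than in line 1. Igf1r lies in the chromosome 7 stretch above, where 46 of 64 tested genes were lower. Line 2 held 39.9 ± 10.9 CPM of Igf1, 0.876 ± 0.337 CPM of Igf2 and 227 ± 26.9 CPM of Igf1r.

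Of 33 interstitial collagens and matrix glycoproteins 12 were lower and 4 higher (median -0.26; 8 higher with the experiment block). The count of higher ones rested on single libraries and was 1, 1 and 0 without the experiment 2 or 4 library of line 1 or the experiment 3 library labelled p27-null. Thrombospondin 1, Thbs1 (chromosome 2, 117941974 to 117957616), an adhesive glycoprotein that can activate latent TGF-beta, had 2227, 1205, 2624 and 2544 CPM in the p27-null-labelled libraries, against 6061, 6355, 8602 and 4098 CPM in line 1 (log2 fold change -1.56 ± 0.28, edgeR adjusted p = 0.00201). The fibril-associated collagen Col12a1 was lower at 541 ± 79 against 1307 ± 220.0 CPM (log2 fold change -1.28 ± 0.15, edgeR adjusted p = 1.7e-04). Of 20 proteoglycan and hyaluronan genes 8 were lower and 3 higher (median -0.36). Decorin, a small proteoglycan that binds collagen, had 0.178, 0.415, 0.389 and 0.116 CPM in the p27-null-labelled libraries, against 18.8, 35.8, 73.9 and 24.6 CPM in line 1 (log2 fold change -7.12 ± 0.60, edgeR adjusted p = 1.8e-05). The syndecan Sdc4 was lower and the hyaluronan receptor Cd44 higher (-0.92 ± 0.11 and 0.76 ± 0.14, edgeR adjusted p = 1.5e-04 and 0.00283). Dcn was close to 0 in every library labelled p27-null, and line 2 averaged 13.6 ± 9.45 CPM.

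Enzymes that cut or crosslink the matrix split into 10 higher and 11 lower of 33 (median -0.09). The membrane protease Mmp14 had 448, 534, 510.1 and 485 CPM in the p27-null-labelled libraries, against 237, 242, 255 and 231 CPM in line 1 (log2 fold change 1.02 ± 0.09, edgeR adjusted p = 2.7e-05). Its substrate, the gelatinase Mmp2, had 112, 89.5, 115 and 109 CPM in the p27-null-labelled libraries, against 308, 263, 290.2 and 322 CPM in line 1 (log2 fold change -1.49 ± 0.11, edgeR adjusted p = 6.3e-06). The inhibitor Timp2, which links that pair, was lower at 651 ± 29.4 against 1410.3 ± 353 CPM (log2 fold change -1.13 ± 0.16, edgeR adjusted p = 5.8e-04). The crosslinking enzyme Loxl4 was lower at 44.1 ± 5.04 against 114 ± 3.08 CPM (log2 fold change -1.38 ± 0.09, edgeR adjusted p = 3.0e-06). Mmp14 and Mmp2 thus moved in opposite directions, each without overlap between the lines. Of 20 basement membrane genes 7 were higher and 7 lower (median 0.05). Laminin alpha 1, Lama1, was at 0.0586 ± 0.0472 against 10.7 ± 3.37 CPM (log2 fold change -7.33 ± 0.44, edgeR adjusted p = 1.9e-06). Lama5 and Col18a1 were lower too (-1.76 ± 0.17 and -1.89 ± 0.19, edgeR adjusted p = 4.5e-05 and 6.3e-05). In line 2 Lama1, Lama5 and Col18a1 averaged 0.205, 18.3 and 79.3 CPM.

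Of 17 integrins 4 were higher and 5 lower (median -0.25). The laminin-binding subunit Itga6 was higher at 175 ± 36.1 against 52.1 ± 11.1 CPM (log2 fold change 1.74 ± 0.19, edgeR adjusted p = 9.9e-05). The collagen-binding subunit Itga2 was lower at 0.453 ± 0.233 against 8 ± 3.45 CPM (log2 fold change -4.14 ± 0.45, edgeR adjusted p = 9.7e-05). Line 2 averaged 86.1 CPM of Itga6 and 0.806 CPM of Itga2. The 4 higher integrins became 2 without the experiment 2 or 4 library of line 1 or the experiment 1 or 3 library labelled p27-null. Of 23 cadherins 7 were higher and 8 lower (median 0.16), and 11 were higher without the experiment 1 library labelled p27-null. Cdh13, a cadherin held by a lipid anchor, had 3.98, 5.39, 3.37 and 3.64 CPM in the p27-null-labelled libraries, against 43, 56.3, 58.4 and 56.1 CPM in line 1 (log2 fold change -3.72 ± 0.17, edgeR adjusted p = 5.5e-07). The giant cadherin Fat4 was lower at 35.7 ± 7.08 against 93.4 ± 9.26 CPM (log2 fold change -1.40 ± 0.16, edgeR adjusted p = 1.1e-04). Cdh6 was higher at 12.2 ± 4.62 against 1.24 ± 0.891 CPM (log2 fold change 3.28 ± 0.50, edgeR adjusted p = 7.2e-04). Pcdhgb7, another that was higher, belongs to a cluster of near-identical genes that can share reads.

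Transcripts of the class I antigen presentation route were lower where they changed. Of 13 tested genes 6 were lower and 0 higher by edgeR (median -0.35; also 0 higher at an unadjusted p under 0.05, by DESeq2 and with the experiment block). The heavy chain gene H2-D1 had 15, 8.06, 11.6 and 9.53 CPM in the p27-null-labelled libraries, against 54, 57.6, 85.2 and 67.8 CPM in line 1 (log2 fold change -2.60 ± 0.21, edgeR adjusted p = 1.2e-05). Its near-identical relative H2-K1, with which it can share reads, was at 3.17 ± 0.892 against 19.8 ± 6.5 CPM. The class I transactivator Nlrc5 was lower at 0.618 ± 0.195 against 7.3 ± 2.07 CPM (log2 fold change -3.56 ± 0.31, edgeR adjusted p = 2.4e-05). So was the peptide transporter subunit Tap2 at 0.471 ± 0.127 against 2.01 ± 0.343 CPM (log2 fold change -2.10 ± 0.26, edgeR adjusted p = 2.3e-04). The other 2 were Tap1 and B2m (-1.38 ± 0.25 and -0.37 ± 0.12), chosen after their values were seen, whereas the chaperones Calr and Pdia3 and the editor Tapbp did not pass. Of 29 interferon response genes only 4 were higher and 1 lower (median 0.04), with Irf9 and Gbp2 higher (0.70 ± 0.14 and 1.15 ± 0.27) and the GTPase gene Irgm1 lower (-1.27 ± 0.19, edgeR adjusted p = 0.00345, 0.00901 and 6.4e-04). The block gave 7 higher and 4 lower, and 2 and 3 were lower without the experiment 1 library of line 1 and without the experiment 3 library labelled p27-null.

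Chemokine, cytokine and complement genes were lower in 10 of 23 tested and higher in 3 (median -0.62; 6 higher with the experiment block). The chemokine Cxcl14 had 3 counts over the 4 libraries labelled p27-null, against 10.6, 14.6, 20.5 and 15 CPM in line 1. Cx3cl1, a membrane-bound chemokine, had 17.8, 9.95, 14.4 and 12.1 CPM in the p27-null-labelled libraries, against 87.1, 63.3, 89.6 and 115 CPM in line 1 (log2 fold change -2.72 ± 0.21, edgeR adjusted p = 1.1e-05). The cytokine Lif was lower at 8.6 ± 2.11 against 34.4 ± 4.67 CPM (log2 fold change -2.01 ± 0.17, edgeR adjusted p = 2.1e-05). So was the complement inhibitor Serping1, at 0.0896 ± 0.032 against 3.19 ± 2.06 CPM (log2 fold change -5.05 ± 0.61, edgeR adjusted p = 1.8e-04). Il1rl1, the interleukin 33 receptor, went the other way with 984, 1866, 1096 and 1332 CPM in the p27-null-labelled libraries, against 289.7, 441, 334 and 472 CPM in line 1 (log2 fold change 1.77 ± 0.23, edgeR adjusted p = 2.8e-04). In line 2 Cxcl14 and Cx3cl1 averaged 26 ± 2.73 and 147 ± 12.5 CPM, so both were lowest in the line labelled p27-null among the 3 lines.

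Among lists of 10 or more tested genes, the imprinted and adipogenic ones had the largest shares of decreases. Of 23 imprinted genes, expressed from 1 parental copy, 14 were lower and 1 higher (median -1.11). Some of the 14 share a locus, so they are not separate cases. Ndn and Snrpn are among them and lie in the chromosome 7 stretch above, where 46 of 64 tested genes were lower. Peg3 (chromosome 7, 6706882 to 6733468), a paternally expressed zinc-finger gene, had 7.13, 14.2, 10.9 and 12 CPM in the p27-null-labelled libraries, against 142, 182, 189 and 201 CPM in line 1 (log2 fold change -4.02 ± 0.22, edgeR adjusted p = 1.2e-06). Its neighbour Usp29 was at 0.211 ± 0.0764 against 5.61 ± 0.755 CPM. Dlk1 (chromosome 12, 109418749 to 109429262), a paternally expressed ligand-like membrane protein that inhibits fat cell formation, had 33.4, 32.2, 40.2 and 45.6 CPM in the p27-null-labelled libraries, against 218, 299, 428 and 316 CPM in line 1 (log2 fold change -3.07 ± 0.21, edgeR adjusted p = 5.1e-06). Mirg and, chosen after its values were seen, Meg3, noncoding RNAs of the maternal copy of the same cluster, were at 5.99 ± 1.43 against 23.1 ± 2.15 CPM and 39.9 ± 10.2 against 153 ± 47.6 CPM. Genes of that cluster known as paternally expressed and as maternally expressed were thus both lower, and the parental copy of the reads was not measured. The strand setting of the counting is not given in the sources used here, so overlapping noncoding transcripts are uncertain. Igf2r, the maternally expressed receptor that clears IGF2, was the 1 member that was higher, at 578 ± 31.9 against 399 ± 21.4 CPM. Line 2 had 256 ± 66.3 CPM of Dlk1 and 2.43 ± 1.19 CPM of Peg3, near line 1 for the first and below both lines for the second.

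Of 14 adipogenic genes 9 were lower and 2 higher (median -1.01). The 2 higher ones, Fabp5 and Plin3, became 1 without any single library other than the experiment 4 library labelled p27-null. Pparg, the master regulator of fat cells, had 6.72, 6.58, 7.01 and 10.1 CPM in the p27-null-labelled libraries, against 18.2, 21.3, 19.2 and 21 CPM in line 1 (log2 fold change -1.40 ± 0.16, edgeR adjusted p = 1.1e-04). Its partner Cebpd was lower at 20 ± 3.93 against 46.4 ± 4.74 CPM and the lipid droplet gene Plin4 at 4.04 ± 0.842 against 15.7 ± 2.49 CPM (edgeR adjusted p = 1.5e-04 and 3.2e-05). Dlk1 belongs to this list as well as to the imprinted one, although it acts against fat cell formation.

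**Figure D5:**
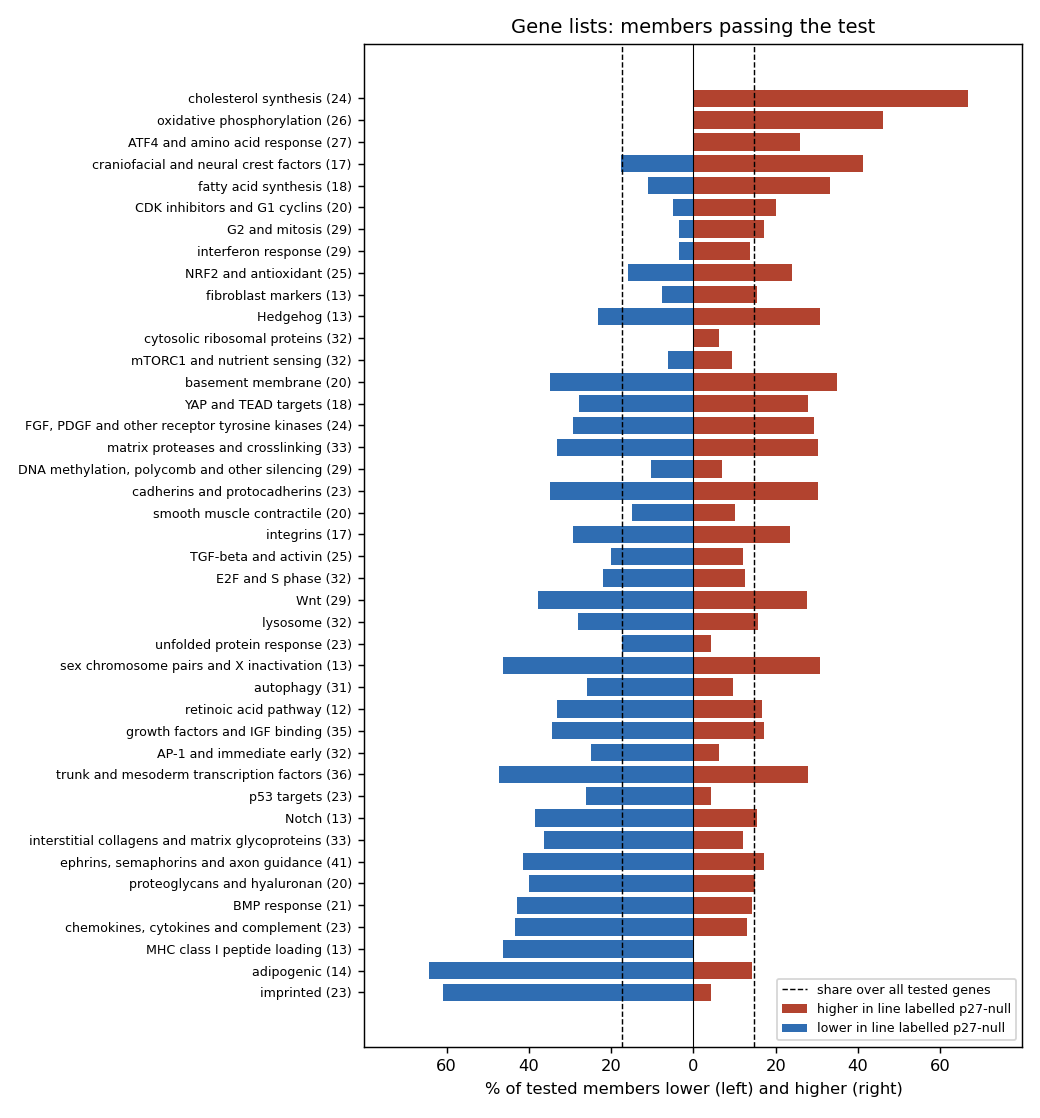
Share of the tested members of each gene list that were called lower (blue, to the left) or higher (red, to the right) in the line labelled p27-null, in percent, for the reported lists of 10 or more tested members, with that number in brackets. The dashed lines are the shares over all 14192 genes, 17.4% lower and 14.8% higher. Cholesterol synthesis reaches furthest to the right at 66.7% and the adipogenic and imprinted lists furthest to the left at 64.3% and 60.9%.

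Of 24 cholesterol synthesis genes 16 were higher and 0 lower by edgeR (median 0.43 beside -0.01 for all genes; also 0 lower at an unadjusted p under 0.05, by DESeq2 and with the experiment block). Squalene synthase, Fdft1, was at 165 ± 21.6 against 89.9 ± 15.5 CPM (log2 fold change 0.86 ± 0.14, edgeR adjusted p = 9.0e-04). The sterol sensors Insig1 and Insig2, which hold back the pathway, were higher as well, at 211 ± 11.3 against 137 ± 15.2 CPM and 38.3 ± 6.14 against 18 ± 1.42 CPM (edgeR adjusted p = 9.8e-04 and 1.8e-04). Changes were modest, below 2-fold for all of these but Insig2, yet the 2 groups did not overlap in 16 genes of the list. A core of the sterol response element, TCACNCCAC read on both strands, was found in the promoter window of 1 of 18 list genes in the promoter table, Hmgcs1, which did not pass the test, beside 1.44% of 27025 genes, and no other motif was looked for.

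Of 18 fatty acid synthesis genes 6 were higher and 2 lower (median 0.26; 11 and 3 with the experiment block; 1 lower without the experiment 2 library labelled p27-null). The desaturase Scd2 had 2393, 2094, 2342 and 1889 CPM in the p27-null-labelled libraries, against 1142, 925, 788 and 1480.1 CPM in line 1 (log2 fold change 1 ± 0.18, edgeR adjusted p = 0.00235). Its relative Scd1 was at 274 ± 6.92 against 188 ± 13.6 CPM and the acetyl-CoA synthetase Acss2 at 10.8 ± 1 against 5.52 ± 0.427 CPM. The triglyceride enzyme Dgat2 was lower at 4.21 ± 0.386 against 8.58 ± 0.338 CPM (log2 fold change -1.04 ± 0.12, edgeR adjusted p = 1.8e-04). Of 26 oxidative phosphorylation genes encoded in the nucleus 12 were higher and 0 lower by edgeR (median 0.32; also 0 lower at an unadjusted p under 0.05, by DESeq2 and with the block). Succinate dehydrogenase subunits Sdha, Sdhb and Sdhd and the ATP synthase subunit Atp5f1b were higher by 0.48 ± 0.09, 0.51 ± 0.11, 0.57 ± 0.11 and 0.56 ± 0.12 on the log2 scale (edgeR adjusted p = 0.00258, 0.0056, 0.00278 and 0.00518). That count ran from 7 to 16 with 1 library left out at a time and was 7 without the experiment 2, 3 or 4 library of line 1. Of 16 tested genes of the mitochondrial chromosome 0 passed by edgeR (median -0.19; also 0 at an unadjusted p under 0.05 and by DESeq2). Mitochondrial transcripts took 1.06 to 2.06% of counts in the libraries labelled p27-null and 1.33 to 2.43% in line 1.

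In the list of ATF4 and amino acid response genes 7 of 27 were higher and 0 lower by edgeR (median 0.23; 1 lower at an unadjusted p under 0.05 and by DESeq2, 13 higher and 2 lower with the experiment block). Without the experiment 4 library of line 1 and without the experiment 3 library labelled p27-null, 1 and 2 were lower. Atf4, the transcription factor, had 491, 431, 447 and 429.5 CPM in the p27-null-labelled libraries, against 273, 235, 210.2 and 258 CPM in line 1 (log2 fold change 0.87 ± 0.10, edgeR adjusted p = 1.1e-04). Its targets Ddit3 and the glutamine transporter Slc1a5 were higher at 30.8 ± 3.49 against 16.4 ± 0.808 CPM and 41.7 ± 7.66 against 20.9 ± 0.604 CPM, and the secreted glycoprotein Stc2 at 24.1 ± 4.28 against 5.18 ± 1.25 CPM (edgeR adjusted p = 1.5e-04, 1.8e-04 and 2.9e-05). Of 23 unfolded protein response genes 1 was higher and 4 lower (median -0.16; 3 and 8 with the block), among them the sensors Ern1 and Eif2ak3 (-0.55 ± 0.10 and -0.58 ± 0.13, edgeR adjusted p = 0.00242 and 0.00742). The 4 became 2 without the experiment 1 or 3 library of line 1 or the experiment 2 or 4 library labelled p27-null, and 2 were higher without the experiment 1 library labelled p27-null.

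Of 25 NRF2 and antioxidant genes 6 were higher and 4 lower (median 0.12; 7 lower with the block). Srxn1 was higher at 97.2 ± 15.2 against 54.6 ± 2.71 CPM and the quinone reductase Nqo1 was lower at 4.86 ± 1.01 against 13.9 ± 4.35 CPM. Only 2 or 3 were higher without the experiment 2, 3 or 4 library of line 1 or the experiment 1, 2 or 3 library labelled p27-null. Of 32 cytosolic ribosomal protein genes 2, Rplp0 and Rps24, were higher and 0 lower by edgeR (median 0.16; 1 lower at an unadjusted p under 0.05 and 0 by DESeq2, 9 higher and 1 lower with the block). Without the experiment 1 library of line 1 there were 6 higher, and without the experiment 1 library labelled p27-null 1 was lower. Rps3a1 and Rpl15, ribosomal genes taken by their abundance, were at 828 ± 66.6 against 299.8 ± 29.1 CPM and 552 ± 83.9 against 250.1 ± 37 CPM. Such genes have near-identical processed copies that can share their reads. Ornithine decarboxylase, Odc1, the entry enzyme of polyamine synthesis, had 859, 602, 583 and 723 CPM in the p27-null-labelled libraries, against 372, 291, 266 and 256 CPM in line 1 (log2 fold change 1.21 ± 0.15, edgeR adjusted p = 2.3e-04). Line 2 averaged 655 ± 69 CPM. Mif, a cytokine with many processed copies, was higher too at 694 ± 158 against 339.6 ± 82.8 CPM (log2 fold change 1.01 ± 0.19, edgeR adjusted p = 0.00227).

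Cell cycle genes, on which p27 acts through kinase activity, changed in both directions. Of 20 CDK inhibitors, G1 cyclins and related genes 4 were higher and 1 lower (median 0.06), beside 14.8% higher and 17.4% lower of all genes. The counts were 7 and 5 with the experiment block, where 23.2% and 26.2% of all genes passed, and 8 and 4 without both experiment 1 libraries. The kinase Cdk4 had 748, 682, 623 and 641 CPM in the p27-null-labelled libraries, against 549, 459, 405 and 466 CPM in line 1 (log2 fold change 0.51 ± 0.11, edgeR adjusted p = 0.00489). The INK4 inhibitor Cdkn2d was higher at 27.2 ± 2.19 against 15.6 ± 1.54 CPM (edgeR adjusted p = 2.8e-04). Skp2, the subunit of the ligase that marks p27 for destruction, was higher at 78.8 ± 5.74 against 63.6 ± 5.05 CPM, and Cdkn1c, the close relative of p27, was lower at 7.82 ± 1.6 against 11.4 ± 0.78 CPM (edgeR adjusted p = 0.0294 and 0.0208). Skp2 lost its call without the experiment 1, 2 or 3 library of line 1 or the experiment 3 or 4 library labelled p27-null, and Cdkn1c, the 1 lower gene, without the experiment 4 library of line 1 or the experiment 2 library labelled p27-null and in a fit over all 12 libraries. There were 2 higher genes without the experiment 2 library of line 1 or the experiment 3 or 4 library labelled p27-null, and 2 lower ones without the experiment 1 library of either line. The cyclin Ccnd2 was higher at 1238 ± 131 against 956 ± 99.4 CPM with overlapping libraries (log2 fold change 0.36 ± 0.12, edgeR adjusted p = 0.0427). Cyclins Ccnd1 and Ccne1 and the inhibitor Cdkn1a did not pass (0.26 ± 0.12, -0.32 ± 0.13 and -0.14 ± 0.23).

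Of 32 E2F and S phase genes 4 were higher and 7 lower (median -0.09), or 12.5% and 21.9% beside 14.8% and 17.4% of all genes. With the block 7 were higher. Only 2 were higher without the experiment 2, 3 or 4 library of line 1 or the experiment 3 or 4 library labelled p27-null. The origin licensing factor Cdc6 was lower at 36.5 ± 4.33 against 53.5 ± 3.27 CPM (log2 fold change -0.57 ± 0.09, edgeR adjusted p = 0.00123). The replication clamp Pcna was higher at 139 ± 10.7 against 100 ± 11.2 CPM (log2 fold change 0.46 ± 0.10, edgeR adjusted p = 0.00517). Of 29 G2 and mitosis genes 5 were higher and 1 lower (median -0.02; 6 and 7 with the block). Higher were the phosphatase Cdc25b at 97.1 ± 10.7 against 60.1 ± 2.94 CPM and cyclin Ccnb1 at 181 ± 8.06 against 139.9 ± 12.8 CPM (edgeR adjusted p = 3.7e-04 and 0.0131). The 5 became 2 without the experiment 2, 3 or 4 library of line 1, and Prc1, the 1 lower gene, lost its call without any of those or of the experiment 1, 2 or 3 libraries labelled p27-null. Pcna, Cdc25b and the mitotic genes Mybl2 and Ube2c lie on chromosome 2, whose median was 0.16, and its part in their values was not tested. Mybl2 and Ube2c lost their calls without the experiment 2, 3 or 4 library of line 1, and also without the experiment 4 library labelled p27-null for Mybl2 and that of experiment 2 for Ube2c. Of 23 p53 targets 6 were lower and 1 higher (median -0.22; 3 higher and 11 lower with the block). Apart from Perp, the apoptosis gene Pmaip1 was at 7.5 ± 1.76 against 29.6 ± 6.9 CPM and the secreted factor Gdf15 at 0.349 ± 0.0915 against 2.18 ± 0.685 CPM (edgeR adjusted p = 8.3e-05 and 2.4e-04), whereas Cdkn1a and Mdm2 did not pass. The 1 higher gene, Bax, lost its call without the experiment 2, 3 or 4 library of line 1 or the experiment 2 library labelled p27-null, and 2 were higher without the experiment 1 library of line 1 or the experiment 4 library labelled p27-null.

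Autophagy, mTORC1 and lysosome genes, tied to p27 through its role at the lysosome, changed in both directions. Over all genes 14.8% were higher and 17.4% lower, and 23.2% and 26.2% with the block. Of 31 autophagy genes 3 were higher and 8 lower (median -0.07; 6 and 13 with the block; 5 lower without the experiment 2 library labelled p27-null). The cargo receptor Optn had 6.24, 6.58, 7.98 and 6.24 CPM in the p27-null-labelled libraries, against 18.2, 22.5, 21.3 and 19.5 CPM in line 1 (log2 fold change -1.60 ± 0.13, edgeR adjusted p = 1.4e-05). Gabarapl2, a protein of the autophagosome membrane, was lower at 32 ± 2.81 against 46.4 ± 2.44 CPM and the lipid transfer protein gene Atg2b was higher at 129 ± 2.66 against 84.6 ± 4.3 CPM. Of 32 mTORC1 genes 3 were higher and 2 lower (median 0.13), or 9.38% and 6.25%, each a smaller share than over all genes. With the block 10 were higher and 5 lower. The X-linked Rag GTPase gene Rragb was lower at 2.85 ± 1.34 against 11 ± 1.09 CPM (log2 fold change -1.95 ± 0.26, edgeR adjusted p = 3.6e-04). The inhibitor Tsc1 was higher at 87 ± 11.3 against 59.4 ± 2.29 CPM (log2 fold change 0.54 ± 0.11, edgeR adjusted p = 0.00365). Of 32 lysosome genes 5 were higher and 9 lower (median 0.01; 9 higher with the block). Cathepsin B, Ctsb, was higher at 617 ± 24.3 against 356 ± 28.4 CPM (log2 fold change 0.78 ± 0.09, edgeR adjusted p = 1.2e-04). Cathepsins Ctsh and Ctsf were lower at 1.93 ± 0.384 against 15.2 ± 5.36 CPM and 1.17 ± 0.251 against 5.48 ± 1.45 CPM. Line 2 averaged 0.0936 CPM of Ctsh and 3.81 CPM of Ctsf. The 5 became 3 without the experiment 1 or 4 library of line 1 or the experiment 2 or 3 library labelled p27-null, and the 9 became 5 without the experiment 2 library of line 1.

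Single actin regulators also differed in both directions. Gelsolin, Gsn, which severs actin filaments, had 1179, 899, 804 and 726 CPM in the p27-null-labelled libraries, against 479, 373, 363 and 394 CPM in line 1 (log2 fold change 1.15 ± 0.15, edgeR adjusted p = 3.0e-04). Rhob was higher at 225 ± 26.7 against 167 ± 7.37 CPM (edgeR adjusted p = 0.00725). Rnd3, an antagonist of RhoA, and stathmin, Stmn1, were lower at 92.9 ± 16.9 against 205 ± 23.5 CPM and 46.1 ± 3.38 against 61.8 ± 1.39 CPM (edgeR adjusted p = 2.9e-04 and 0.00258). Of 20 smooth muscle contractile genes 2 were higher and 3 lower (median 0.14; 6 higher with the block, 1 without the experiment 2 or 4 library of line 1 or the experiment 1 or 3 library labelled p27-null). The actin gene Actg2 was at 88.5 ± 38.4 against 25.5 ± 10.2 CPM and the myosin gene Myh11 at 0.567 ± 0.262 against 3.53 ± 1.26 CPM. Of 18 YAP and TEAD targets 5 were higher and 5 lower (median -0.10). The receptor kinase Axl was higher at 1181 ± 96.1 against 840.1 ± 61.5 CPM and Ankrd1 and Crim1 were lower at 43.6 ± 10.1 against 95.8 ± 24.1 CPM and 275 ± 54.2 against 624 ± 35.6 CPM. In line 2 Axl, Ankrd1 and Crim1 averaged 628, 0.344 and 238 CPM. Of the 18, 2 or 3 were higher without the experiment 2, 3 or 4 library of line 1 or the experiment 2 or 4 library labelled p27-null. Without the experiment 1 or 3 library of line 1 or the experiment 3 library labelled p27-null, 3 were lower.

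Of 32 AP-1 and immediate early genes 8 were lower and 2 higher (median -0.28; 14 and 5 with the block). The MAP kinase phosphatase Dusp4 had 38.2, 31.1, 36.4 and 49.7 CPM in the p27-null-labelled libraries, against 169, 178, 193 and 85.4 CPM in line 1 (log2 fold change -2.02 ± 0.25, edgeR adjusted p = 2.0e-04). Egr3 and Fos were lower at 2.52 ± 0.873 against 9.2 ± 2.08 CPM and 3.1 ± 0.869 against 8.07 ± 1.89 CPM and the signalling inhibitor Spry1 was higher at 36.4 ± 9.52 against 12.2 ± 2.62 CPM (edgeR adjusted p = 4.7e-04, 0.00122 and 3.2e-04). Of 29 genes of DNA methylation, polycomb and other silencing 2 were higher and 3 lower (median 0.03; 6 and 8 with the block), among them Tet3 and Ezh1, both lower (-0.44 ± 0.09 and -0.46 ± 0.10). Only 1 was higher without the experiment 2 or 3 library of line 1 or the experiment 2 or 4 library labelled p27-null. Hmga1, a chromatin protein of dividing and embryonic cells, was taken by its abundance at 558 ± 75.9 against 220.4 ± 42.5 CPM (log2 fold change 1.33 ± 0.14, edgeR adjusted p = 9.5e-05), with processed copies that can share its reads. The LIM protein gene Fhl1, on the X chromosome, had 233, 152, 193 and 200.3 CPM in the p27-null-labelled libraries, against 656, 706, 678 and 536 CPM in line 1 (log2 fold change -1.74 ± 0.14, edgeR adjusted p = 1.2e-05).

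Markers of other cell types were low and mixed. Of 14 epithelial markers 7 were in the table, 2 of them tested, summing to 8.29 to 15.2 CPM in the p27-null-labelled libraries and 29.5 to 63.6 CPM in line 1. Most of it was Krt19, at 9.49 ± 3.35 against 43.4 ± 14 CPM (log2 fold change -2.21 ± 0.30, edgeR adjusted p = 3.5e-04). Endothelial markers summed to 4.4 to 6.04 CPM against 8.39 to 19.1 CPM (5 of 11 in the table). The receptor Kdr was lower at 1.36 ± 0.664 against 9.67 ± 3.71 CPM and Egfl7 was higher, a call lost without any 1 library other than the experiment 1 library of line 1 or the experiment 3 library labelled p27-null. Haematopoietic markers summed to 7.85 to 9.51 CPM against 6.41 to 10.5 CPM (3 of 13 in the table, of which Csf1r alone passed, lower). Neural markers summed to 39.2 to 52.8 CPM against 68.9 to 134 CPM (6 of 13), with Map2 lower at 17.9 ± 5.7 against 72.5 ± 26.3 CPM, 1 more lower in the block fit and without the experiment 3 library labelled p27-null, and Mbp higher at 14 ± 1.44 against 5.47 ± 0.442 CPM. Muscle markers summed to 64.3 to 92.8 CPM against 16.2 to 42.3 CPM (2 of 13). These were Pax3 and the actin gene Acta1, itself lower at 4.79 ± 1.35 against 29.2 ± 12.1 CPM. Epithelial Krt19 moved with the lower Perp and Pkp1 of the desmosomes, and its part in those values was not tested. Perp and Pkp1 were also low in line 2, averaging 0.25 and 1.12 CPM. Krt19 was at 0.374 and 0.113 CPM in the line 2 libraries of experiments 1 and 2.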

How the data were processed

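Total RNA of 2 fibroblast lines, 4 libraries each, was compared. Per the labels' protocols, cDNA was read as paired ends of 150 bases. The submitters' processing notes name FastQC, STAR 2.5.4a and the build GRCm39. For the counting, strand setting and annotation were not given in the sources used here. Used were the raw read counts per gene that the authors deposited, per the file headers. Of 15207 entries 51 name no gene and were left out (2.04 to 5.25% of a library's counts). GENCODE vM39, the source of coordinates, held 15153 of the 15156 identifiers.

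Counts of the 8 libraries were fitted with edgeR 4.0.16 in R 4.3.3 (TMM, filterByExpr, quasi-likelihood F test, two-sided, Benjamini-Hochberg adjustment over 14192 genes, threshold 0.05) without a block. The standard error is approximated as the absolute log2 fold change over the root of F. The script was tested on simulated data. CPM are scaled by TMM factors over all 12 libraries. Folds against a group with no counts are bounds that put 3 counts in that group. With 1 to 3 counts in a group, levels stand alone. Pairs of libraries of 1 line had a chi-square of 10.3 to 66.5 per degree of freedom, above sampling noise, and none was merged. Deviations of libraries with the same experiment number correlated at 0.768, 0.309, 0.34 and 0.108 across genes in experiments 1 to 4. Libraries of unlike number among experiments 2 to 4 correlated at 0.0248 to 0.428. The values thus set experiment 1 apart but do not show a pairing within experiments 2 to 4. The experiment block takes the numbers as pairs all the same, which the labels do not state. Chromosome medians are of log2 (CPM + 0.5). Figures and tables used Python 3.11.15 with pandas 2.3.3, numpy 2.4.6 and matplotlib 3.10.9.

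Named were, besides Cdkn1b, genes passing the test without overlap of the lines, with a mean of at least 5 CPM and an official symbol: the 10 largest increases and decreases, the 8 most abundant with at least a 2-fold change each way, up to 5 at 0 in a line, and, without those conditions beyond the test, up to 4 passing members with the smallest adjusted p of each of 48 lists. Hox, cartilage and glycolysis genes were left out. A gene and a list that the rule covers are not reported here. Named outside this rule, after their values were seen, were Axin2, B2m, Bambi, Bax, Bmp4, Ccnd1, Ccnd2, Ccne1, Cdkn1a, Chrd, Col1a1, Calr, Ddx3x, Eif2s3x, Fabp5, Hmgcs1, Id3, Igf2r, Kdm5c, Kdm6a, Mdm2, Meg3, Pdgfra, Pdia3, Plin3, Prc1, Snrpn, Tap1, Tapbp, Thy1, Uba1, Usp9x, Wnt5a and, of chromosome 7, Entrep2, Herc2, Lrrk1, Mef2a, Ndn and Tjp1. So was S100a4 of the fibroblast markers. The comparison and the lists were chosen with earlier results of these data known, so no list is independent support. Alternatives were DESeq2 1.42.0, its size factors, other filters, the experiment block, all 12 libraries, a minimum change of 1.5-fold, leaving out each library or both experiment 1 libraries, and leaving out X, Y and mitochondrial genes.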

Additional observations from a re-analysis of the deposited data

Results flagged for a closer look

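In 28 of 394 groups of 4 libraries, 1 library lay far from the other 3 by the ratio of its gap to the range (Dixon, 95%). Chance flags about 1 in 20 groups. Genes with more than a few counts are given first.

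Among libraries labelled p27-null, that of experiment 1 was high for Mif (931 CPM, against 604 to 624 CPM in the other 3), Rplp0 (2973 CPM, others up to 2216 CPM), Vim (6179 CPM, others up to 4712 CPM) and Cdc6 (43 CPM, others up to 34.9 CPM) and low for Itgb8 (0.416 CPM, others from 1.68 CPM). In that library ribosomal protein genes took 5.48% of counts. The experiment 2 library was high for Alx1 (43.7 CPM) and Rragb (4.86 CPM) and low for Tgfb2 (17.6 CPM). The experiment 3 library was high for Igfbp4 (51.7 CPM) and Robo1 (9.8 CPM) and low for Tbx3 (36.7 CPM), and the experiment 4 library was high for Sdc4 (147 CPM) and Pparg (10.1 CPM).

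In line 1 the experiment 1 library was high for Mybl2 (99.8 CPM), Gli2 (49.6 CPM) and Vegfb (39.4 CPM) and low for Cdh13 (43 CPM). The experiment 4 library was high for Ntrk3 (34.9 CPM, others up to 14.3 CPM) and Itgb8 (22.2 CPM, others up to 10.0 CPM) and low for Hey1 (1.19 CPM) and Fgfr1 (217 CPM).

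The other 7 flags are single libraries above 0 where the other 3 held no count: in the line labelled p27-null Tdrd1, Kctd12b and Esm1 (0.0649 CPM each) and Pkp1 (0.325 CPM), all in experiment 3, and in line 1 Kdm5d (0.053 CPM), Eif2s3y (0.104 CPM) and Alx1 (0.106 CPM).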

How the results depend on the processing

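The count of genes higher in the line labelled p27-null was 2102 and of genes lower 2471. With the experiment number as a block, which takes libraries of the same number as pairs, they were 3289 and 3722. In a test against a minimum change of 1.5-fold they were 442 and 1105. With 1 library left out at a time they ranged from 1509 to 2352 and from 2100 to 2575. Under DESeq2, its size factors, both other filters, all 12 libraries, without both experiment 1 libraries and without X, Y and mitochondrial genes they lay between 1978 and 2796 higher and 2407 and 3071 lower, within 1.5 times of those counts. Of the 197 genes named by the rule, none changed its call with the block, DESeq2, its size factors, no filter or without both experiment 1 libraries, so the block changed no call of a named gene. The minimum change of 1.5-fold ended 59 of these calls, the fit over all 12 libraries 1 (Cdkn1c), and single libraries left out between 1 and 7, and no named gene changed sign in any of these fits. At a depth of 15.4 to 19.1 M counts, genes near 0 in 1 line are known only to a bound, and 1 line of each kind leaves the spread between lines of a genotype unmeasured.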

Other observations

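Classes of genes outside the named lists differed in how often they passed. Of 11882 tested protein-coding genes 16% were higher and 19% lower in the line labelled p27-null than in line 1. Of 804 long noncoding RNA genes 8.21% were higher and 14.1% lower, with a median log2 fold change of -0.09. Processed pseudogenes, copies of messenger RNAs pasted back into the genome, leaned the other way: of 831 tested 10.6% were higher and 5.42% lower (median 0.13). Reads of such copies can come from the parent genes, and the classes differ in their counts per gene, whose part was not tested.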
